A study of Mus musculus with 15 samples.

Results

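The sirtuin family, the enzymes that make its cofactor NAD and the coactivator PGC-1α were examined in mouse kidney at 3 ages. The set held 10 genes, Sirt1 to Sirt7, Nampt, Nmnat1 and Ppargc1a, of 33058 named genes in the deposited table. They were chosen by name, with earlier results of these data known. Each gene's value was the sum of the FPKM of its transcripts, where FPKM is the number of fragments scaled for transcript length and library depth. The rows summed were those that match an annotated transcript, lie within one, share a splice junction with one or overlap its exons. These rows numbered 80 transcripts of 129029. Kidney RNA came from 15 male C57BL/6 mice (C57BL/6J in the study's methods), 5 each aged 3 months (young), 12 months and 24 months (old), with 1 library per mouse and no treatment or transgene. The tissue was what other assays had left of the kidney, and which region it held is not given in the sources used here. In such bulk tissue fewer cells of a type and less RNA per cell cannot be told apart.

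Sirtuins are enzymes that remove acetyl and longer acyl groups from proteins and use up NAD in each round. Nampt makes nicotinamide mononucleotide from the nicotinamide that sirtuins and other NAD users release, and it is the rate-limiting enzyme of this salvage route. Nmnat1 turns that product into NAD in the nucleus. Ppargc1a encodes PGC-1α, a coactivator of mitochondrial biogenesis that Sirt1 deacetylates and that the kidney tubule expresses strongly. Sirt1, Sirt6 and Sirt7 are mainly nuclear, Sirt2 is mainly cytoplasmic, and Sirt3, Sirt4 and Sirt5 are mitochondrial.

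The libraries held between 5.03 and 6.13 Gb of aligned bases in the young mice, 5.84 to 8.03 Gb at 12 months and 6.07 to 7.33 Gb in the old mice. By correlation across genes no library stood apart, each having a median of 0.962 to 0.968 with the others on log2(FPKM + 1). Young replicate 8 had the fewest aligned bases, 5.03 Gb. All 8 proximal tubule markers and all 4 markers of the thick limb and distal tubule were above 0 in all 15 mice. The summed FPKM of the 5 stroma markers was 20.3 to 53.1 at 3 months, 50.3 to 79.9 at 12 months and 38.3 to 61.4 at 24 months. That of the 7 leukocyte markers was 5.17 to 11.6, 11 to 31.2 and 10.6 to 23.4. That of the 5 collecting duct markers was 63.5 to 166, 50.4 to 68.5 and 43.6 to 77.6. Of the 4 adrenal cortex markers Cyp11b1, Cyp11b2 and Cyp21a1 reached at most 0.0401 FPKM. Star, which takes cholesterol into mitochondria, reached 3.24 FPKM, and the sum of the 4 was 1.05 to 1.75, 1.73 to 2.34 and 1.89 to 3.25. Of the stroma markers 2 of 5 and of the leukocyte markers 5 of 7 were higher in old than in young mice at an unadjusted p under 0.05, and 5 of 5 and 3 of 7 were higher at 12 months. Of the proximal tubule markers 2 of 8 were lower in old mice. Of the collecting duct markers 1 of 5 was lower in old mice and 2 of 5 at 12 months. Of the adrenal markers 1 was higher at each of these ages. Beside these counts, 14.9% of all genes passed this limit in old against young mice and 14.3% in 12 against 3 months. The part of depth and of these cell types in the results that follow was not tested. Sample titles of all ages begin with the same 3-month prefix, so groups were taken from the age labels, which the column headings match.

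All 10 genes were above 0 in every mouse. Over the 15 mice Sirt3 had the highest mean, 26.7 ± 3.88 FPKM (mean ± SD), and Nampt followed with 26.5 ± 5.83. These 2 did not differ beyond their spread, with Sirt3 above Nampt in 7 of 15 mice. Sirt2 (16.7 ± 1.97) came next and was below Nampt in 14 mice. Ppargc1a (14.9 ± 2.61) overlapped Sirt2, which was higher in 10 mice. Ppargc1a was above Sirt7 (8.69 ± 2.54) in 15 of 15 mice. Sirt7 was above Sirt1 (7.17 ± 1.53) in 11, and Sirt1 was above Sirt4 in 15 of 15. The lowest 4 genes were Sirt4 (3.77 ± 0.649), Sirt5 (2.87 ± 0.692), Nmnat1 (2.74 ± 0.528) and Sirt6 (2.16 ± 0.649), and each neighbouring pair overlapped, the upper gene being higher in 11, 10 and 10 mice. FPKM is per length, so these sums can be set beside each other, but their order depends on the rows summed. Over annotated rows alone Ppargc1a averaged 1.19, 0.841 and 2.26 FPKM at 3, 12 and 24 months. These means were below those of Sirt7, 4.75, 5.85 and 5.35. Nampt averaged 12.7, 10.8 and 12.7 over annotated rows, beside 21.6, 23.4 and 25.8 for Sirt3.

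**Figure D1:**
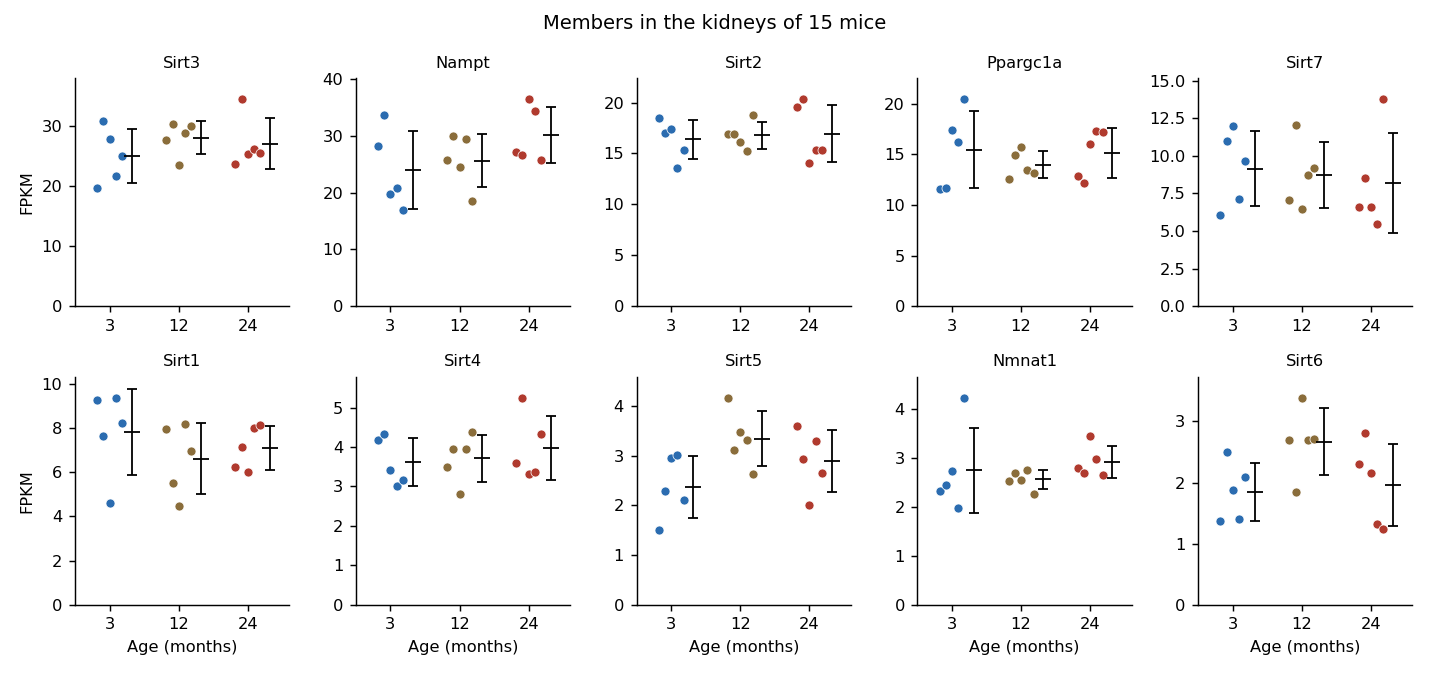
FPKM of each member by mouse (points) at 3, 12 and 24 months, with the mean ± SD of 5 mice in black, each vertical axis starting at 0. The ages overlap in all 10 panels, and the Sirt5 and Sirt6 panels have higher means at 12 than at 3 months.

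The main comparison asked which members differed between old and young kidneys. None of the 10 passed limma's test at an unadjusted p under 0.05 (smallest adjusted p = 0.439), whereas 14.9% of all 31755 genes tested did. Here and below, called means past that limit. Of all genes called, 76.7% were higher in old mice, and 55.3% with quantile normalization, which makes the libraries' distributions alike. For 12 against 3 months these shares were 79.8% and 52.3%, and for 24 against 12 months 47.7%, and 66.2% with TPM. No member had ranges that separated the ages, but the share of all genes that did is not given here, so this does not set the members apart. The members' log2 fold changes on the scale of FPKM + 1 ran from -0.17 to 0.35, with a median of 0.07 beside 0.02 over all genes. All 10 intervals lay within 1 log2 unit of 0, the outermost bounds being -0.72 and 0.76. Adding 1 to FPKM understates the change of a gene as low as Sirt6. A p that misses the limit does not show that the ages were alike.

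**Figure D2:**
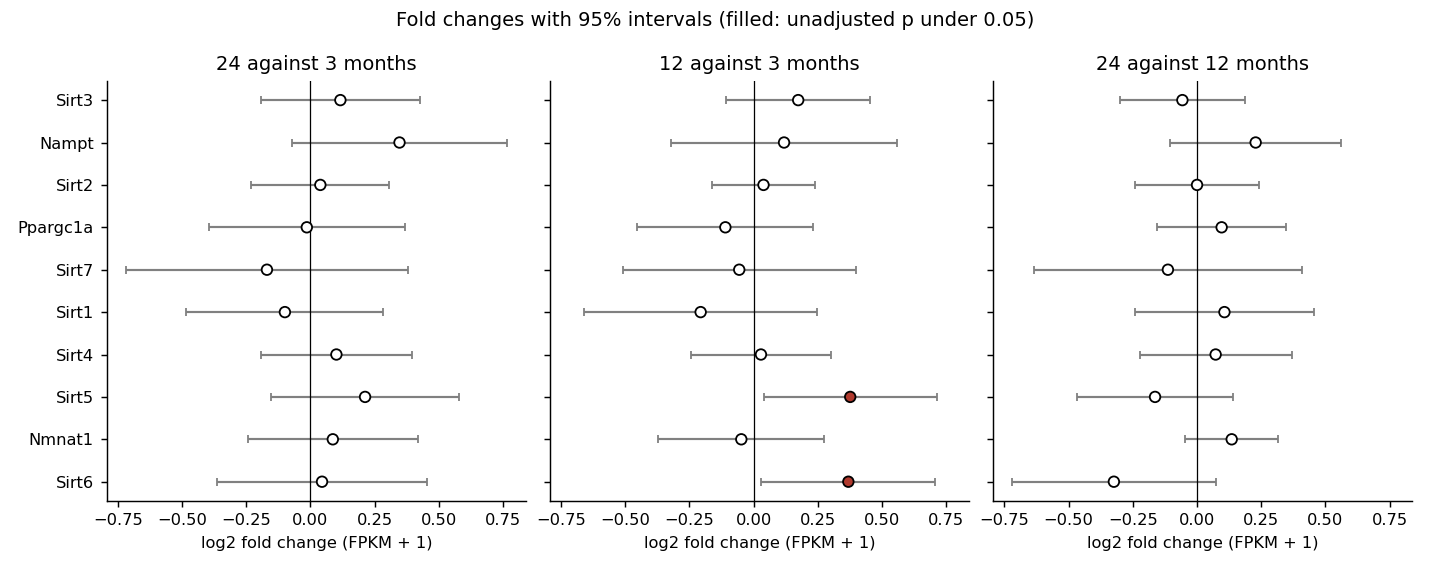
Log2 fold change of FPKM + 1 (horizontal axis) for each member in the 3 comparisons of ages, with 95% intervals from limma and filled points for an unadjusted p under 0.05. Only Sirt5 and Sirt6 in 12 against 3 months are filled, at 0.38 and 0.37.

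Of the NAD synthesis enzymes, Nampt had the largest estimate for old against young among the members when all its rows were summed. Its FPKM were 28.3, 33.7, 19.7, 20.9 and 17 at 3 months, 25.7, 30.0, 24.4, 29.5 and 18.4 at 12 months and 27.1, 26.7, 36.5, 34.3 and 25.8 at 24 months. Both high young mice lay within the old range, and the other 3 lay below it. Means ± SD (n = 5) were 23.9 ± 6.88, 25.6 ± 4.68 and 30.1 ± 4.93. Old against young gave log2 fold change 0.35 ± 0.19 (SE), 95% interval -0.07 to 0.76, adjusted p = 0.439 by limma. Leaving out the young mouse with the highest value, replicate 6, gave 0.48, which was called, with adjusted p = 0.230. For 12 against 3 months the log2 fold change was 0.12 (95% interval -0.32 to 0.56, adjusted p = 0.794), and for 24 against 12 months it was 0.23 (95% interval -0.10 to 0.56, adjusted p = 0.820). Assembled transcripts make up 54.5% of the Nampt sum. Over its annotated rows alone, old against young was 0.10 (95% interval -0.78 to 0.97, adjusted p = 0.927) and 12 against 3 months was -0.30 (95% interval -1.46 to 0.85, adjusted p = 0.808). The largest annotated estimate for old against young among the members was then that of Sirt5, 0.70 (95% interval 0.00 to 1.39, adjusted p = 0.371), which was called.

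Nmnat1, the nuclear enzyme that completes NAD, was low. The values of Nmnat1 in FPKM were 2.33, 2.45, 2.74, 1.99 and 4.23 at 3 months, 2.54, 2.69, 2.56, 2.76 and 2.27 at 12 months and 2.80, 2.70, 3.44, 2.98 and 2.66 at 24 months. Young replicate 9 was above every other mouse. The means ± SD were 2.75 ± 0.872, 2.56 ± 0.189 and 2.92 ± 0.319. By limma, the log2 fold change was 0.09 (95% interval -0.24 to 0.42, adjusted p = 0.799) for old against young, -0.05 (95% interval -0.37 to 0.28, adjusted p = 0.894) for 12 against 3 months and 0.14 (95% interval -0.05 to 0.32, adjusted p = 0.820) for 24 against 12 months.

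Among the nuclear sirtuins, Sirt1 deacetylates p53, FOXO factors and PGC-1α. The values of Sirt1 in FPKM were 9.25, 7.63, 4.59, 9.36 and 8.24 at 3 months, 7.93, 5.52, 4.45, 8.15 and 6.97 at 12 months and 6.21, 7.12, 6.00, 8.0 and 8.10 at 24 months. The other 4 young mice were above the old median of 7.12 FPKM whereas young replicate 7 was below every old mouse. Old against young gave log2 fold change -0.10 ± 0.17 (SE), 95% interval -0.48 to 0.28, adjusted p = 0.803. Without young replicate 7 the estimate was -0.26 and was called, with adjusted p = 0.348. The log2 fold change was -0.21 (95% interval -0.66 to 0.25, adjusted p = 0.657) for 12 against 3 months and 0.11 (95% interval -0.24 to 0.45, adjusted p = 0.866) for 24 against 12 months.

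Sirt6, a histone deacylase of DNA repair and telomeric chromatin, was higher at 12 than at 3 months. The values of Sirt6 in FPKM were 1.36, 2.49, 1.87, 1.40 and 2.09 at 3 months, 2.70, 1.84, 3.39, 2.69 and 2.71 at 12 months and 2.30, 2.81, 2.15, 1.32 and 1.24 at 24 months. The other 4 of the 12-month mice, all but replicate 18, lay above all young mice. Its log2 fold change for 12 against 3 months was 0.37 ± 0.15 (SE), 95% interval 0.03 to 0.71, adjusted p = 0.310. At 24 months the mean was 1.96 FPKM, and the log2 fold change was 0.05 (95% interval -0.37 to 0.46, adjusted p = 0.923) against 3 months and -0.32 (95% interval -0.72 to 0.07, adjusted p = 0.820) against 12 months. Without 12-month replicate 18 the latter was -0.41 (adjusted p = 0.797), and without old replicate 32 it was -0.42 (adjusted p = 0.620), and both were called. The call for 12 against 3 months was lost with quantile normalization, where the log2 fold change was 0.25 (adjusted p = 0.556).

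Sirt7 works in the nucleolus and on chromatin. The values of Sirt7 in FPKM were 6.09, 11, 12.0, 7.12 and 9.64 at 3 months, 7.08, 12.1, 6.47, 8.75 and 9.17 at 12 months and 6.63, 8.52, 6.60, 5.48 and 13.8 at 24 months. Old replicate 35 was the highest of all 15 mice and the other old mice were at or below 8.52 FPKM. Old against young gave log2 fold change -0.17 ± 0.25 (SE), 95% interval -0.72 to 0.38, adjusted p = 0.763, and -0.36 (adjusted p = 0.478) without old replicate 35. For 12 against 3 months and 24 against 12 months it was -0.06 (95% interval -0.51 to 0.40, adjusted p = 0.914) and -0.11 (95% interval -0.63 to 0.41, adjusted p = 0.912).

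Sirt2, the mainly cytoplasmic sirtuin that deacetylates tubulin, stayed between 13.6 and 20.3 FPKM. The values of Sirt2 in FPKM were 18.5, 17, 17.4, 13.6 and 15.4 at 3 months, 16.9, 16.9, 16.2, 15.2 and 18.8 at 12 months and 19.6, 20.3, 14.1, 15.4 and 15.3 at 24 months. The 3 groups overlapped, with means ± SD of 16.4 ± 1.92, 16.8 ± 1.32 and 16.9 ± 2.81. By limma, the log2 fold change was 0.04 (95% interval -0.23 to 0.31, adjusted p = 0.897) for old against young, 0.04 (95% interval -0.16 to 0.24, adjusted p = 0.860) for 12 against 3 months and 0.00 (95% interval -0.24 to 0.24, adjusted p = 0.999) for 24 against 12 months.

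Sirt3, the main deacetylase of the mitochondrial matrix, had the highest FPKM of the sirtuins. The values of Sirt3 in FPKM were 19.7, 30.8, 27.9, 21.7 and 25.1 at 3 months, 27.7, 30.4, 23.5, 28.8 and 30.1 at 12 months and 23.8, 34.5, 25.4, 26.3 and 25.5 at 24 months. Old replicate 32 was above the other mice and the rest overlapped between ages. Its log2 fold change was 0.12 (95% interval -0.19 to 0.43, adjusted p = 0.713) for old against young, 0.17 (95% interval -0.11 to 0.45, adjusted p = 0.577) for 12 against 3 months and -0.06 (95% interval -0.30 to 0.19, adjusted p = 0.904) for 24 against 12 months. Sirt4, which acts on glutamate dehydrogenase and other matrix enzymes, had FPKM of 4.18, 4.34, 3.41, 3.02 and 3.17 at 3 months, 3.48, 3.95, 2.81, 3.95 and 4.39 at 12 months and 3.60, 5.25, 3.32, 3.37 and 4.34 at 24 months. Again old replicate 32 was the highest, and the ages overlapped. Its log2 fold changes were 0.10 (95% interval -0.19 to 0.40, adjusted p = 0.738), 0.03 (95% interval -0.25 to 0.30, adjusted p = 0.931) and 0.07 (95% interval -0.22 to 0.37, adjusted p = 0.897) in the same order.

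Sirt5 removes succinyl, malonyl and glutaryl groups in mitochondria. The values of Sirt5 in FPKM were 1.5, 2.29, 2.95, 3.02 and 2.11 at 3 months, 4.17, 3.12, 3.47, 3.33 and 2.64 at 12 months and 3.61, 2.93, 2.0, 3.29 and 2.65 at 24 months. At 12 months 4 of 5 mice were above every young mouse and replicate 21 was within the young range. The log2 fold change for 12 against 3 months was 0.38 ± 0.15 (SE), 95% interval 0.04 to 0.71, adjusted p = 0.299. For old against young it was 0.21 (95% interval -0.15 to 0.58, adjusted p = 0.606) and for 24 against 12 months -0.16 (95% interval -0.47 to 0.14, adjusted p = 0.820). The call at 12 months was lost with TPM (0.43, adjusted p = 0.386), quantile normalization (0.26, adjusted p = 0.535) and annotated transcripts only (0.44, adjusted p = 0.675).

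Sirt5 and Sirt6 were thus 2 of 10 members called in 12 against 3 months, both higher, beside 14.3% of all genes called and 11.4% called and higher. Both calls had adjusted p of 0.299 and 0.310 and neither passed at an adjusted p under 0.05. Of the young mice left out in turn, replicate 5 ended both calls (Sirt5 0.27, adjusted p = 0.431, and Sirt6 0.31, adjusted p = 0.461). Young replicates 6 and 9 and 12-month replicates 17, 19 and 20 also each ended the Sirt5 call, and young replicates 7 and 8 and 12-month replicates 17, 19, 20 and 21 the Sirt6 call. In 24 against 12 months none of the 10 members was called by limma at an unadjusted p under 0.05, beside 6.43% of all genes (smallest adjusted p = 0.820). These comparisons share mice and are not independent. The stroma and leukocyte sums given above were also higher on average at 12 than at 3 months and the collecting duct sum was lower on average, and their part in the values of Sirt5 and Sirt6 was not tested.

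Assembled transcripts make up 90.4% of the Ppargc1a sum. The values of Ppargc1a in FPKM were 11.6, 11.7, 17.4, 16.2 and 20.4 at 3 months, 12.6, 15, 15.8, 13.4 and 13.1 at 12 months and 12.8, 12.2, 16.1, 17.3 and 17.2 at 24 months. Young mice spanned the whole range of the old mice. Its annotated transcripts alone averaged 1.19 ± 0.978 FPKM in young, 0.841 at 12 months and 2.26 ± 1.96 in old mice, and the coding one 0.0849, 0.0357 and 0.182. The log2 fold change was -0.01 (95% interval -0.40 to 0.37, adjusted p = 0.976) for old against young, -0.11 (95% interval -0.45 to 0.23, adjusted p = 0.749) for 12 against 3 months and 0.10 (95% interval -0.16 to 0.35, adjusted p = 0.833) for 24 against 12 months.

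The 80 transcripts behind these sums were 58 annotated ones and 22 assembled by StringTie. GENCODE M21 types 29 of them as protein coding, 20 as retained introns, 4 as targets of nonsense-mediated decay and 5 as processed transcripts. Over the 15 mice 30 of the 80 held at least 10% of their gene's FPKM. StringTie divides shared reads between overlapping transcripts, so transcripts of a gene are not measured independently, and 39 of 80 were listed at 0 in at least 1 mouse.

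Most of Ppargc1a lay in 2 assembled transcripts. MSTRG.27412.1 (chr5:51446503-51553874, minus strand, 14 exons) held 54.0% of the gene's FPKM. MSTRG.27412.6 (chr5:51481960-51567726, 6 exons) held 36.4% and began 13804 bases upstream of the annotated coding transcript ENSMUST00000132734. Its mean was 5.64 ± 2.85, 5.09 ± 1.3 and 5.49 ± 0.908 FPKM at 3, 12 and 24 months, and its log2 fold change for old against young was 0.07 (adjusted p = 0.944). For MSTRG.27412.1 that value was -0.20 (adjusted p = 0.727). Ppargc1a is known to have an alternative promoter upstream of its main one. A further single-exon transcript inside an intron, MSTRG.27413.1, is not part of the sum and had 10.1 ± 2.48 FPKM in young and 12.3 ± 3.72 in old mice (adjusted p = 0.727).

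The upstream Ppargc1a start lies beside the start that RefSeq gives. The bases before it (GRCm38.p6, chr5:51567727-51567975, minus strand) hold TGACG, the core of the site of CREB family factors, which is shown in capitals as its reverse complement. Of all RefSeq promoter windows 20.8% hold TGACG, and a match is no evidence of binding.
Ppargc1a: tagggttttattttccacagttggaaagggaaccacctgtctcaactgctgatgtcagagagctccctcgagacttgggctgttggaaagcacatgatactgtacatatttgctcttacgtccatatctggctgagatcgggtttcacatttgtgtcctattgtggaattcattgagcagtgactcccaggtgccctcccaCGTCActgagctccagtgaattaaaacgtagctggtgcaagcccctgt

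Sirt5 also had 2 starts. ENSMUST00000066804 (chr13:43370710-43395202, plus strand, protein coding) held 53.4% of its FPKM and the assembled MSTRG.9628.1, which began 5218 bases upstream at 43365492, held 46.6%. In FPKM the annotated transcript was at 1.5, 2.29, 7.40e-05, 0.754 and 0.264 in young and 1.83, 1.42, 2.0, 1.72 and 2.64 in old mice. The assembled one was at 0, 0, 2.95, 2.27 and 1.85 in young and 1.78, 1.51, 0, 1.57 and 0.00790 in old mice. The assembled one was listed at 0 in 3 of these 10 mice, where the annotated one made up the whole value, and in young replicate 7 it was the reverse. The annotated transcript passed the test (old against young, log2 fold change 0.70 ± 0.31 (SE), adjusted p = 0.630), and its share of the gene did not (adjusted p = 0.762). The call was lost without any 1 of the mice other than young replicates 5 and 6, with a log2 fold change of 0.49 without young replicate 7, whose value was the lowest.

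The bases upstream of the Sirt5 start in RefSeq, cropped where the assembled transcript begins (GRCm38.p6, chr13:43365285-43365491, plus strand), hold the only AAGGTCA among the members' promoters, shown in capitals. AAGGTCA is the core that estrogen-related receptors, partners of PGC-1α, bind. Of all RefSeq promoter windows 4.72% hold it, and the longer element TCAAGGTCA is in none of the members' windows. Such a match is no evidence of binding.
Sirt5: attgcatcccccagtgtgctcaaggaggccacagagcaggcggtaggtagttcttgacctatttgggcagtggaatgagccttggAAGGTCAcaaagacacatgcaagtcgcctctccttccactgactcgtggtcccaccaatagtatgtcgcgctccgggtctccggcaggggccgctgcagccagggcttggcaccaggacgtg

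Sirt3 had alternative first exons and a cassette exon. ENSMUST00000106048, whose exon 1 is at chr7:140881763-140881869 on the minus strand, held 37.6% of the gene's FPKM, and ENSMUST00000026559, whose exon 1 is at chr7:140882158-140882309, held 12.3%. Exon 1 is untranslated in both, and both carry the same 771 coding bases. ENSMUST00000211179 shares the latter first exon but for its first bases and adds an exon of 156 coding bases at chr7:140867731-140867886. The following 30 bases span these junctions, with the 8 bases around each junction in capitals. The exon 1 to 2 junctions tell the first exons apart, and the exon 5 to 6 junction marks the added exon. ENSMUST00000211179 also carries the exon 1 to 2 junction listed under ENSMUST00000026559.
ENSMUST00000106048, exon 1 to 2: tgtggggtccgGGAGTGTTacaggtgggag
ENSMUST00000026559, exon 1 to 2: tttggcgaggaCTAGTGTTacaggtgggag
ENSMUST00000211179, exon 5 to 6: gggacctccctGGAGGTAGtggtgactgcc

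The bases before the outer first exon of Sirt3 (GRCm38.p6, chr7:140882310-140882559, minus strand) hold 1 TGACG, written in capitals as its reverse complement. This motif is in 20.8% of all RefSeq promoter windows.
Sirt3: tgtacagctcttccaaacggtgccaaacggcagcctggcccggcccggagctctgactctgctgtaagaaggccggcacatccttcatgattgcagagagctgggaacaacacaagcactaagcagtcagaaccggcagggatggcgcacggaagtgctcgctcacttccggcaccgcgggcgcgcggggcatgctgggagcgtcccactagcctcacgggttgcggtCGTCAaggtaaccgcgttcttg

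ENSMUST00000211179 was higher in the old mice without overlap. It stood at 0.361, 0.279, 1.0, 0.784 and 0.514 FPKM in young, 2.37, 0.753, 1.43, 0.516 and 1.70 at 12 months and 1.2, 1.12, 2.90, 1.34 and 1.17 in old mice. Old against young gave log2 fold change 0.66 ± 0.21 (SE), adjusted p = 0.442. The assembled MSTRG.34495.1, which begins 211 bases upstream of ENSMUST00000106048 and holds 11.8% of Sirt3, was lower in old mice. Its FPKM were 2.94, 2.63, 3.88, 3.61 and 4.28 in young, 5.98, 6.80, 1.89, 7.26 and 1.48 at 12 months and 1.28, 0.328, 0.941, 1.06 and 2.85 in old mice. Only old replicate 35 reached the young range. The test gave log2 fold change -1.04 ± 0.26 (SE), adjusted p = 0.317. Its share fell from 14.2% ± 3.44 to 5.05% ± 3.78 of the gene's FPKM (mean ± SD, adjusted p = 0.629). ENSMUST00000106048 and ENSMUST00000026559 themselves were not called, at 0.33 (adjusted p = 0.746) and -0.27 (adjusted p = 0.910). The retained intron ENSMUST00000210398, with 11.8% of the gene, was not called either (adjusted p = 0.766).

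For Nampt, the annotated coding transcript ENSMUST00000020886 (chr12:32820335-32853349, plus strand, 11 exons) held 44.3%, followed by the assembled MSTRG.7867.6 (21.7%), MSTRG.7867.1 (12.5%) and MSTRG.7867.5 (10.5%). The last 3 and the annotated one were not called in old against young, with adjusted p of at least 0.727. MSTRG.7867.10, an assembled transcript of 14745 bases that starts downstream of the annotated start, was higher. Its FPKM were 0, 0, 0.325, 0.354 and 0.787 in young, 1.82, 3.92, 2.22, 0 and 2.96 at 12 months and 3.59, 1.75, 2.61, 1.15 and 1.38 in old mice. Every old mouse was above every young mouse, and 3 mice were listed at 0. Old against young gave log2 fold change 1.24 ± 0.25 (SE), adjusted p = 0.222. Its share rose from 1.59% ± 1.89 to 7.13% ± 3.70 of the gene's FPKM (mean ± SD, adjusted p = 0.667). The short processed transcript ENSMUST00000218491, under 1 FPKM in all mice, was also higher (log2 fold change 0.41 ± 0.09 (SE), adjusted p = 0.266), with 4 of 5 young mice listed at 0.

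Part of the Sirt7 sum reached into a neighbouring gene. The largest transcript was the assembled MSTRG.7505.25 (chr11:120618388-120632991, minus strand), which held 23.8% of the gene and covered 7875 bases of the span of Mafg, the gene upstream on the same strand. Together the 4 assembled transcripts that reach into Mafg made up 45.6% ± 12.5 of Sirt7 FPKM in young, 30.8% ± 26.3 at 12 months and 28.9% ± 19.5 in old mice (mean ± SD, n = 5). Reads of Sirt7 and Mafg cannot be told apart in them. MSTRG.7505.25 was at 1.86, 3.45, 6.45, 0.679 and 3.44 FPKM in young, 0.0955, 4.04, 3.02, 2.91 and 0.0912 at 12 months and 1.23, 1.51, 0.901, 1.15 and 0.164 in old mice. The ages overlapped through young replicate 8. The test gave log2 fold change -0.95 ± 0.38 (SE), adjusted p = 0.588, and leaving out young replicate 6, 7 or 9 or old replicate 33 or 35 ended the call. Over all mice left out in turn the estimates ran from -1.23 to -0.70. In old replicate 35, MSTRG.7505.27, another transcript of this kind, was at 8.61 FPKM, and in the other 14 mice it was at most 0.0479.

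The direction of 3 members in old against young depended on the rows summed, Sirt7, Sirt2 and Ppargc1a. Sirt2 went from 0.04 over all rows to -0.11 over annotated and -0.14 over protein-coding rows, and Ppargc1a from -0.01 to 0.49 and 0.11, none of them called. For Sirt7 the changes were as follows. Over all rows old against young was -0.17 (adjusted p = 0.763). Over the annotated rows alone it was 0.14 (adjusted p = 0.677). Over the 3 protein-coding transcripts alone it was 0.41 ± 0.18 (SE, adjusted p = 0.347), and was called, from 0.894 ± 0.329 to 1.51 ± 0.455 FPKM (mean ± SD). In those transcripts the old mice were at 1.96, 1.99, 1.26, 0.959 and 1.36 FPKM and the young mice at 1.06, 0.344, 1.03, 1.18 and 0.853. The ages overlapped. The remaining main transcripts of Sirt7 were the retained introns ENSMUST00000130743 (17.2%), ENSMUST00000127882 (12.1%) and ENSMUST00000153018 (10.3%) and the coding ENSMUST00000146809 (13.8%). The share of ENSMUST00000127882 rose from 9.06% ± 2.30 to 15.5% ± 4.04 of the gene's FPKM (mean ± SD, adjusted p = 0.670), and that of MSTRG.7505.25 fell from 32.2% ± 15.8 to 14.4% ± 7.84 of the gene's FPKM (mean ± SD, adjusted p = 0.673). Retained introns made up 39.8% ± 6.60 of Sirt7 in young and 49.4% ± 13.9 in old mice.

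The transcripts of the other members had smaller differences. Sirt1 was made up of the coding ENSMUST00000020257 (34.6%), the assembled MSTRG.3841.1 (30.8%) and the retained intron ENSMUST00000131371 (20.1%). Sirt2 was led by ENSMUST00000122915 (39.3%), MSTRG.32412.4 (19.2%) and ENSMUST00000072965 (17.5%). A smaller Sirt2 transcript, MSTRG.32412.6, ran through the downstream gene Rinl and held 5.61%. Sirt4 was divided among MSTRG.28467.4 (30.8%), ENSMUST00000112066 (29.8%) and the retained intron ENSMUST00000127479 (18.4%). Sirt6 lay mostly in the coding ENSMUST00000042923 (48.7%) and ENSMUST00000119324 (40.6%), and Nmnat1 in ENSMUST00000030845 (78.4%) and ENSMUST00000119921 (12.5%). None of these transcripts was called in old against young, with adjusted p of at least 0.720. A further 3 minor ones were called and higher, each under 1 FPKM in every mouse. ENSMUST00000126896 of Nmnat1 was 0.0591, 0.0687, 0.0563, 0.0354 and 0 in young and 0.279, 0.146, 0.215, 0.257 and 0.110 FPKM in old mice without overlap (log2 fold change 0.20 ± 0.05 (SE), adjusted p = 0.312). ENSMUST00000143424 of Sirt6 (log2 fold change 0.15 ± 0.06 (SE), adjusted p = 0.584) did not overlap between young and old mice either, whereas the retained intron ENSMUST00000154729 of Sirt4 did (log2 fold change 0.36 ± 0.15 (SE), adjusted p = 0.609). The Sirt6 call was lost without young replicate 5, 6 or 8 or old replicate 31, and the Sirt4 call without young replicate 5, 8 or 9 or old replicate 32, 33 or 35.

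In all, 9 of 80 transcripts of the members (11.2%) had an unadjusted p under 0.05 in old against young, 7 higher and 2 lower, beside 7.9% of all 124719 transcripts tested. The smallest adjusted p was 0.222. Of 50 shares tested, 7 (14%) passed, 5 higher and 2 lower, beside 7.29% of all 44113 shares. The smallest adjusted p of a share was 0.629. Besides those given, the shares of ENSMUST00000126896 in Nmnat1, ENSMUST00000143424 in Sirt6 and ENSMUST00000154729 in Sirt4 were higher, from 1.83% to 6.88%, 0.579% to 6.41% and 1.94% to 9.87% (means of 5 mice).

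**Figure D3:**
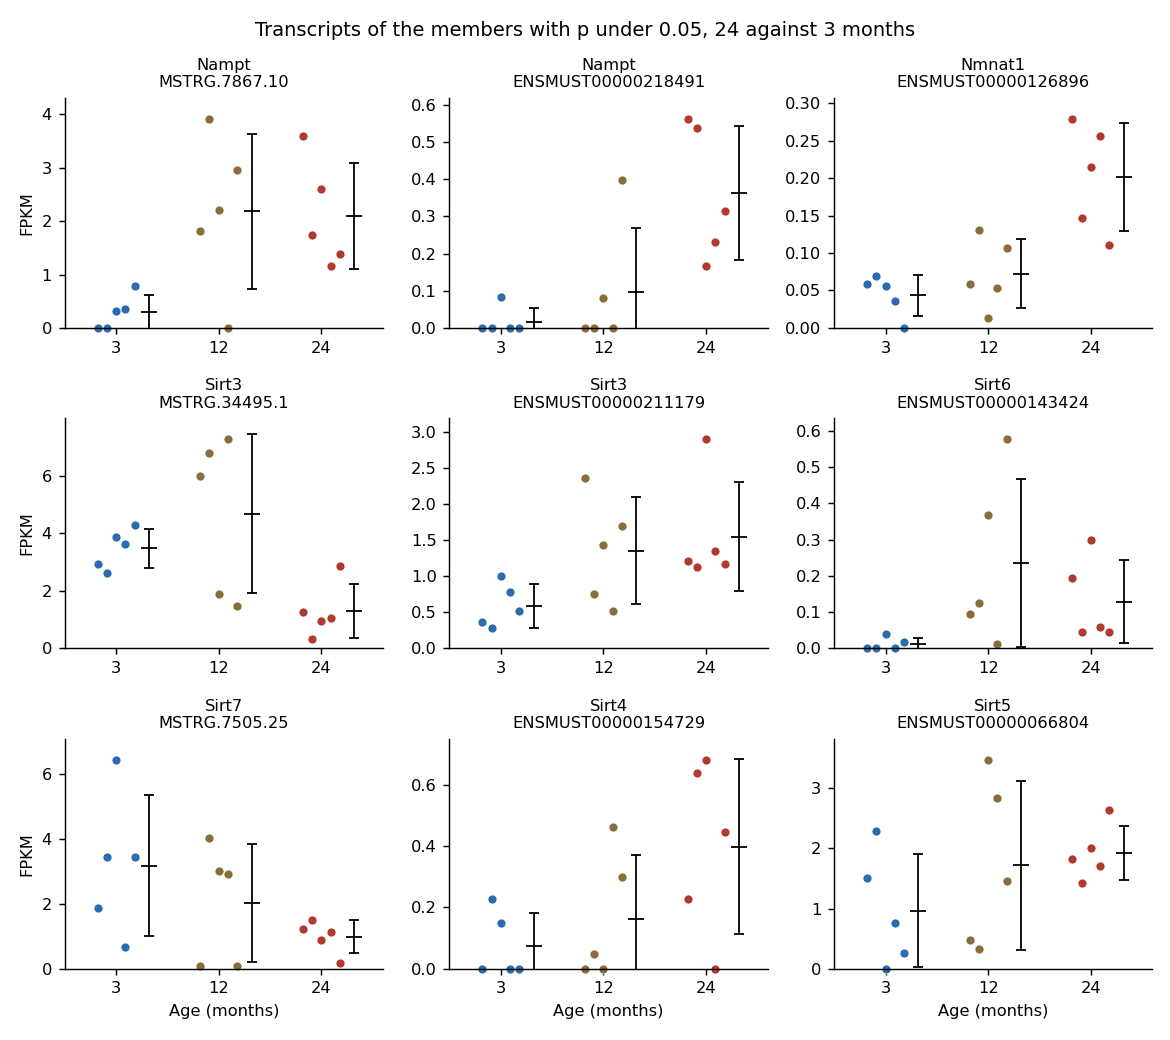
FPKM by mouse of the 9 transcripts with an unadjusted p under 0.05 in 24 against 3 months, with the mean ± SD of 5 mice in black (bars are cut at 0). Nampt MSTRG.7867.10 is at or below 0.787 in the young mice and at or above 1.15 in the old mice, and Sirt3 MSTRG.34495.1 and Sirt7 MSTRG.7505.25 are the 2 with lower means in old mice.

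The deposited circular RNAs held 7 entries from 3 members, Nampt, Sirt1 and Ppargc1a, of 11929 in all. In a circular RNA the end of a later exon is joined back to the start of an earlier one, or an intron is kept as a circle. The 2 Ppargc1a entries ciRNA1086 and ciRNA865 differ by 2 bases in their start, had identical counts in all 15 mice and were counted once, which left 6. The 4 exonic circles end exactly at exon boundaries, and the back-splice junctions predicted from the annotated exons are given with the 8 bases around the junction in capitals, because only these bases set a circle apart from its linear host.
Nampt circRNA2378, exon 4 to exon 2: accaattggatTGAGGTTActcactataaa
Sirt1 circRNA9380, exon 7 to exon 4: tagcactaattCCAAGTTTctgtctcctgt
Ppargc1a circRNA734, exon 2 to itself: gcgaacatattTGAGTGTGctgctctggtt
Ppargc1a circRNA1846, exon 10 to exon 8: aagcagaaagcAATTGCCTaactcctccca

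The exon numbers are those of ENSMUST00000020886, ENSMUST00000020257 and ENSMUST00000132734 in GENCODE M21, and all these exons are coding. The circles span chr12:32830167-32835030, chr10:63323967-63331897, chr5:51548512-51548691 and chr5:51472598-51474411 on GRCm38. ciRNA1086 lies in the intron after exon 4 of Ppargc1a (chr5:51494806-51495669) and ciRNA472 in that after exon 7 (chr5:51474416-51490016). The linear single-exon transcript MSTRG.27413.1 begins within the span of ciRNA472. How reads were assigned to circles is not given in the sources used here. All circular counts of a mouse summed to 20.2% to 25.5% of the library size that the deposited counts and FPKM imply. This share was 21.29% to 25.46% at 3 months, 20.65% to 21.81% at 12 months and 20.18% to 20.97% at 24 months. Young replicate 8 alone had 25.46%, and the other young mice were at most at 22.30%. The share was thus lower in every old mouse than in every young mouse. Reads of linear RNA from the same exons or introns cannot be told apart from the circular counts here.

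The Nampt circle was higher in old mice. It had 133, 111, 137, 142 and 137 CPM in young, 180, 136, 182, 132 and 136 at 12 months and 221, 175, 177, 234 and 169 in old mice. CPM is the count scaled to the total of all circular counts of the mouse. That total was a smaller share of the implied library in old than in young mice. Its part in the CPM differences of the circles was not tested. In CPM every old mouse was above every young mouse, and the 12-month mice lay on both sides. By the deposited FPKM of the circle the ages overlapped, at 63.4 to 92.4 in young and 88.8 to 123 in old mice. edgeR's quasi-likelihood test gave log2 fold change 0.48, adjusted p = 0.0137 for old against young. For circles, called means an adjusted p under 0.05. By this limit it was not called for 12 against 3 months (log2 fold change 0.18, adjusted p = 0.384) or for 24 against 12 months (log2 fold change 0.30, adjusted p = 0.236). On the log2 scale, the ratio of circular count to Nampt FPKM differed by 0.21 (95% interval -0.27 to 0.69, adjusted p = 0.648) between old and young, and this interval includes 0. The median difference over all 11634 ratios tested was 0.08.

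The intronic circle ciRNA1086 of Ppargc1a was lower in old mice. It had 5.48, 4.91, 8.48, 6.57 and 6.64 CPM in young, 4.99, 3.73, 4.53, 4.87 and 4.41 at 12 months and 4.92, 4.31, 3.75, 3.57 and 5.37 in old mice. These rest on 29.0 to 68.7 estimated counts per mouse. All young mice but replicate 6 were above all old mice. Old against young gave log2 fold change -0.62, adjusted p = 0.0385. Leaving out young replicate 7, 8 or 9 or old replicate 31, 32, 33 or 34 ended the call, the weakest estimate being -0.49 (adjusted p = 0.0887) without young replicate 7. Its ratio to Ppargc1a FPKM differed by -0.52 (95% interval -0.92 to -0.12, adjusted p = 0.176), the only ratio of 6 to pass at an unadjusted p under 0.05, beside 17.3% of all 11634 ratios tested. The adjusted p of this ratio was 0.176, and the median difference over all ratios was 0.08.

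The other circles did not pass at an adjusted p under 0.05. In Ppargc1a, circRNA734 (log2 fold change -0.49, adjusted p = 0.0790) and ciRNA472 (log2 fold change -0.35, adjusted p = 0.0889) missed it, and passed when a single mouse was left out, namely young replicate 8 (adjusted p = 0.0425) or old replicate 35 (adjusted p = 0.0429) for circRNA734 and young replicate 6 (adjusted p = 0.0247) for ciRNA472. Their means ± SD were 23.3 ± 4.64, 19 ± 3.49 and 17.5 ± 4.07 CPM for circRNA734 and 313 ± 60.0, 257 ± 41.8 and 260 ± 25.8 for ciRNA472. circRNA1846 gave log2 fold change -0.16, adjusted p = 0.481, and circRNA9380 of Sirt1 gave log2 fold change 0.08, adjusted p = 0.669. Thus 2 of 6 circles were called in old against young, beside 13.3% of all 11925 tested. None was called by edgeR at an adjusted p under 0.05 in 12 against 3 months, beside 6.62%, or in 24 against 12 months, beside 0.746%. At an unadjusted p under 0.05 the counts were 4 of 6 in old against young, 3 in 12 against 3 months and 1 in 24 against 12 months, beside 28.8%, 23.7% and 16.9% of all circles.

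**Figure D4:**
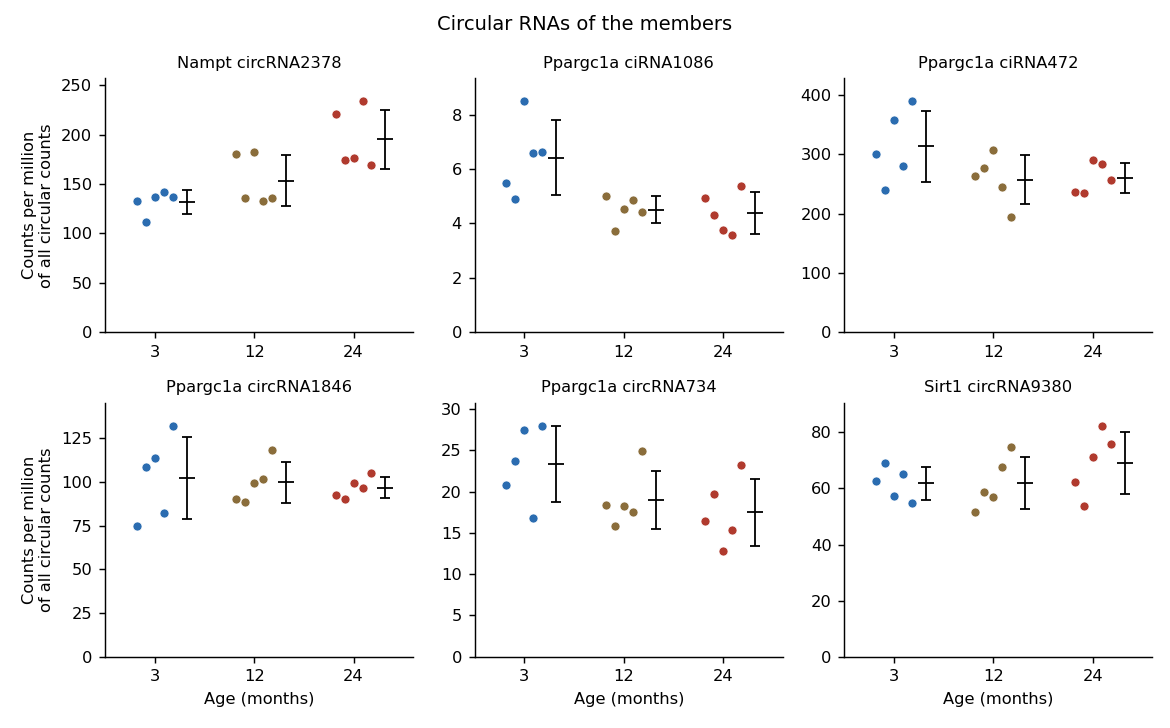
CPM (counts scaled to all circular counts) by mouse for the 6 distinct circular RNAs of the members, with the mean ± SD of 5 mice in black and vertical axes starting at 0. The old mice lie above the young mice without overlap in the Nampt panel.

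The pathway around the members was read from 5 lists of genes that are not members. These lists were chosen with earlier results of these data known, so the counts called in them are descriptions only. The list for the rest of NAD synthesis covers the routes from tryptophan, nicotinic acid and nicotinamide riboside. It also counts Acmsd, which draws an intermediate of the tryptophan route away from NAD. In old against young 7 of its 15 genes were called, 7 higher and 0 lower, beside 14.9% of all genes. The median log2 fold change was 0.11 over the list and 0.02 over all genes. With TPM the medians were 0.34 and 0.06, and 6 were called, all higher. Nadsyn1, which makes NAD from its nicotinic acid form, was at 6.82, 6.65, 6.88, 6.49 and 7.62 FPKM in young and 8.45, 8.34, 9.38, 8.50 and 8.75 in old mice (log2 fold change 0.30 ± 0.06 (SE), adjusted p = 0.0518). Nmnat3, the mitochondrial counterpart of Nmnat1, was at 3.90, 3.71, 3.99, 3.22 and 3.87 FPKM in young and 6.23, 4.49, 5.36, 4.96 and 5.54 in old mice (log2 fold change 0.41 ± 0.09 (SE), adjusted p = 0.0625). Neither gene overlapped between the ages. The other 5 called were Nmrk1, Tdo2, Nmnat2, Kynu and Ido1, of which Tdo2, Nmnat2 and Ido1 had means under 1 FPKM in every age group. With quantile normalization 6 were called higher and 1 lower. In 12 against 3 months 3 were called, all higher, beside 14.3% of all genes called and 11.4% called and higher.

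The list of enzymes that use NAD or turn it into NADP also held Nnmt and Aox1, which do neither. Of its 17 genes 5 were called, 4 higher and 1 lower, beside 14.9% of all genes. Their median was 0.15. Parp2, a DNA damage sensor that spends NAD, was at 2.82, 3.24, 2.81, 2.55 and 2.93 FPKM in young and 3.79, 3.73, 4.22, 4.21 and 4.87 in old mice without overlap (log2 fold change 0.41 ± 0.09 (SE), adjusted p = 0.0548). Parp4, the vault poly(ADP-ribose) polymerase, was at 6.73, 7.17, 6.82, 6.55 and 8.60 FPKM in young and 8.88, 8.43, 8.99, 9.10 and 9.59 in old mice with overlap (log2 fold change 0.29 ± 0.08 (SE), adjusted p = 0.101). With quantile normalization 2 were called higher and 2 lower. Of the partners of PGC-1α and genes of mitochondrial biogenesis, 5 of 16 were called, 2 higher and 3 lower, beside 14.9% of all genes. Their median was 0.03, and with quantile normalization 2 were called higher and 2 lower. Tfam, which packs and transcribes mitochondrial DNA, was at 5.16, 4.75, 4.92, 4.59 and 5.31 FPKM in young and 6.41, 5.96, 5.78, 7.14 and 6.77 in old mice without overlap (log2 fold change 0.32 ± 0.07 (SE), adjusted p = 0.0712). Twnk, the mitochondrial DNA helicase, was lower, at 3.04, 2.11, 4.88, 5.63 and 5.0 FPKM in young and 2.09, 2.22, 1.41, 1.02 and 1.88 in old mice (log2 fold change -0.88 ± 0.23 (SE), adjusted p = 0.104).

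Among regulators and substrates of sirtuins, 8 of 18 were called, 4 higher and 4 lower, beside 14.9% of all genes. Their median was -0.06. Ccar2, a protein that binds and inhibits Sirt1, was at 6.08, 7.19, 6.45, 8.05 and 7.30 FPKM in young and 10.7, 10.6, 9.72, 7.90 and 9.58 in old mice (log2 fold change 0.42 ± 0.10 (SE), adjusted p = 0.0746). Hic1, a repressor of Sirt1 transcription, was at 0.103, 0, 0.00261, 0.460 and 0.268 FPKM in young and 0.720, 0.758, 0.529, 0.346 and 0.287 in old mice (log2 fold change 0.39 ± 0.13 (SE), adjusted p = 0.190). Both overlapped between the ages. Across these 4 lists no gene passed at an adjusted p under 0.05 in any of the 3 comparisons, and 386 of all genes did in old against young.

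The clock list had the highest share called of the 5. Like the others, it was chosen with earlier results of these data known, so this share describes the list only. The clock is known to drive Nampt in other tissues, and the hour of killing is not given in the sources used here. In old against young 8 of 11 were called, 5 higher and 3 lower, beside 14.9% of all genes, and 4 of them passed at an adjusted p under 0.05. Npas2 was at 6.81, 6.04, 2.95, 3.97 and 5.56 FPKM in young and 0.433, 0.321, 0.506, 0.272 and 1.08 in old mice (log2 fold change -1.97 ± 0.21 (SE), adjusted p = 0.00880). Arntl, which encodes BMAL1, was at 13.6, 16.7, 8.30, 9.81 and 11.2 FPKM in young and 1.68, 0.510, 0.721, 0.624 and 3.72 in old mice (log2 fold change -2.51 ± 0.32 (SE), adjusted p = 0.0146). Neither overlapped. In 12 against 3 months 8 were called and in 24 against 12 months 6, beside 14.3% and 6.43% of all genes. The part of the clock in the values of Nampt and Sirt1 was not tested.

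**Figure D5:**
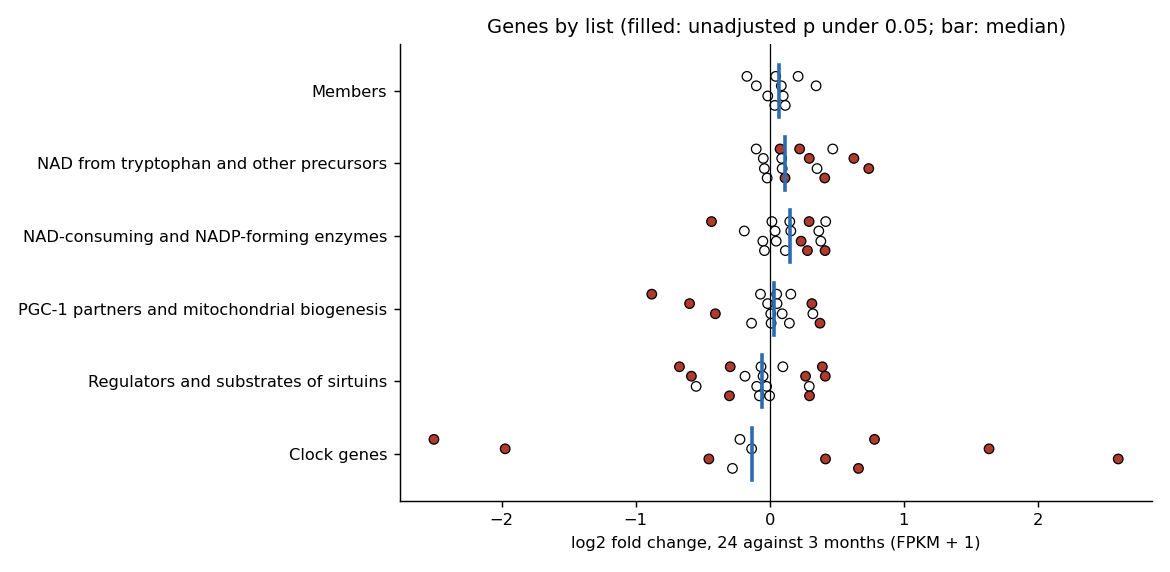
Log2 fold change of FPKM + 1 for 24 against 3 months (horizontal axis) of each gene in the members and the 5 lists, with filled points for an unadjusted p under 0.05 and blue bars at list medians. No member is filled. Filled are 7 of 15 genes of the NAD synthesis list and 8 of 11 clock genes, beside 14.9% of all genes under that limit. The lists were chosen with earlier results of these data known.

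The site of CLOCK and BMAL1, CACGTG, was looked for in the promoters of RefSeq (GRCm38.p6), which run from 250 bases before to 50 after each start, on both strands. All 10 members matched, with 13 windows, and Sirt1 was the only member with CACGTG, which 7.15% of all 32851 windows hold. TGACG was in 5 of the 13 windows, those of Ppargc1a, Sirt4, Sirt1, Nampt and the outer start of Sirt3, beside 20.8% of all. AAGGTCA was in that of Sirt5, beside 4.72%. The longer TGACGTCA (1.79% of all windows) and TCAAGGTCA (0.423%) were in none. TGACGTCA contains TGACG, and TCAAGGTCA contains AAGGTCA. A match describes letters and is no evidence of binding. The windows of Sirt1 (chr10:63339051-63339285, minus strand) and Nampt (chr12:32820085-32820324, plus strand), cropped where a transcript begins, are shown with CACGTG and TGACG in capitals. In Sirt1 the second CACGTG overlaps the TGACG.
Sirt1: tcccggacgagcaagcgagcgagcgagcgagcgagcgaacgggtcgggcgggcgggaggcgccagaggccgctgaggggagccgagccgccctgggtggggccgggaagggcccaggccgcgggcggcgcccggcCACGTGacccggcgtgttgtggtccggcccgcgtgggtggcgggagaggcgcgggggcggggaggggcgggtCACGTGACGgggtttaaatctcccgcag
Nampt: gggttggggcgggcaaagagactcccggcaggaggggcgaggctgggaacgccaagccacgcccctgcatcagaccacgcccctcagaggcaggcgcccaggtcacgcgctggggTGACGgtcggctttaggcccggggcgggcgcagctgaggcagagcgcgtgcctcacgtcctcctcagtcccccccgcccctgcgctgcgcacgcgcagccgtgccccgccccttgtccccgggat

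Likeness of pattern was described by Pearson's r of log2(FPKM + 1) over the 15 mice among 13446 genes with a mean of at least 1 FPKM, followed by r after each age was centred on its mean. The closest genes were, for the NAD synthesis enzymes, Nampt with Zswim6 (0.83, 0.81), Gm27395 (0.81, 0.77) and Cdk17 (0.80, 0.74), and Nmnat1 with Rnf139 (0.82, 0.82), Vps13b (0.80, 0.79) and 3110056K07Rik (0.78, 0.76). For the nuclear sirtuins they were Sirt1 with Tspan14 (0.84, 0.83), Pcna (0.82, 0.81) and Zfp697 (0.81, 0.85), Sirt6 with Rassf7 (0.89, 0.84), Drap1 (0.87, 0.82) and Ndufv3 (0.84, 0.79), and Sirt7 with Phf5a (0.81, 0.81) and Amt (0.80, 0.81). For the cytoplasmic and mitochondrial sirtuins they were Sirt2 with Siva1 (0.85, 0.86), Zcchc17 (0.80, 0.80) and Tmem256 (0.80, 0.79), Sirt3 with Gm15635 (0.86, 0.84), Tcf7l2 (0.86, 0.86) and Ints9 (0.85, 0.86), Sirt4 with Arhgap1 (0.86, 0.86), Nmral1 (0.85, 0.86) and Gstp1 (0.81, 0.83), and Sirt5 with Gm20475 (0.84, 0.75), Zfp763 (0.84, 0.78) and Gm10291 (0.84, 0.76). Ppargc1a stood closest to Avl9 (0.80, 0.84), Rnu3b1 (0.79, 0.81) and Pmaip1 (0.79, 0.81). No member was among the closest genes of another. With 13446 genes and 15 mice, r of this size can also arise between unrelated genes. Neither the named genes nor the absence of members therefore shows a link or its lack. Between members, r was 0.61 for Sirt2 and Sirt4, -0.63 for Sirt2 and Ppargc1a and 0.03 for Nampt and Sirt1. The points share libraries and depth, and these are descriptions of 15 mice.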

How the data were processed

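Total RNA of kidney tissue, the part left over from other assays, was sequenced for each mouse. Per the labels, ribosomal RNA was depleted and stranded libraries were made, whereas the study's methods name oligo(dT) selection, so which RNA was kept is unsure. The authors trimmed the reads, aligned them to GRCm38 with Ensembl annotation, assembled and merged transcripts with StringTie and deposited per-transcript FPKM, already scaled for length and depth, and read coverage. The submitters' processing notes also name TopHat2. Coverage divided by FPKM, nearly constant within a library, gave the aligned bases as deposited. For circular RNAs the authors deposited estimated counts, which need not be whole, and FPKM, and how they were counted is not given in the sources used here.

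FPKM were summed per gene and tested as log2(FPKM + 1) with limma 3.58.1 (trend, R 4.3.3) over the 10 mice of the 2 ages compared, with all genes or transcripts above 0 in at least 1 of them. Calls use an unadjusted p under 0.05, with Benjamini-Hochberg adjusted p beside. Isoform shares were fitted in percent (gene mean of at least 1 FPKM, at least 2 transcripts, mean share of at least 5%). Circular counts were rounded to whole numbers and tested with edgeR 4.0.16 (quasi-likelihood, TMM, above 0 in at least 5 mice, adjusted p under 0.05), with DESeq2 1.42.0 as an alternative. The log2 ratio of circular count to host FPKM was fitted with limma after seeing the data. The count had 0.5 added and was scaled to all circular counts of the mouse. Tests are two-sided. The scripts were tested on simulated data.

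All members were named. Of their transcripts, those with at least 10% of the gene or called in 24 against 3 months were named. Of each wider list, the 2 genes with the smallest p were named, and of like genes the 3 with the highest r, 1 of which is not reported here. Members and lists were chosen with earlier results of these data known. Transcript types are not in the deposited table and came from GENCODE M21, in which all 58 annotated member transcripts have the same position. Each mouse is 1 replicate, and all 15 libraries were used. FPKM carries no read counts, so no counting intervals are given.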

Additional observations from a re-analysis of the deposited data

Results flagged for a closer look

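Of 48 groups of 5 mice tested with Dixon's criterion, 3 had a mouse apart from the rest, and chance flags about 1 in 20. Sirt3 was at 34.5 FPKM in old replicate 32, with a gap of 0.77 of the range of its age. The Nampt circle circRNA2378 was at 111 CPM (counts scaled to all circular counts) in young replicate 6, the lowest of its age, with a gap of 0.72. The Ppargc1a circle circRNA734 was at 25.0 CPM in 12-month replicate 21, the highest of its age, with a gap of 0.73.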

How the results depend on the processing

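No paired analysis was possible because the ages share no replicate numbers. For old against young, the 0 members called became 1 with annotated transcripts only (Sirt5) and 2 with protein-coding transcripts only (Sirt5 and Sirt7) (the types were added after seeing the data), and 0 to 1 when a mouse was left out. With protein-coding transcripts Sirt7 turned from -0.17 to 0.41, Sirt2 from 0.04 to -0.14 and Ppargc1a from -0.01 to 0.11, and Nampt went from 0.35 to 0.04. For 12 against 3 months, the 2 members called became 1 with TPM, with annotated and with protein-coding transcripts (Sirt6 in each), 0 with quantile normalization, at an adjusted p under 0.05 and with a fold limit, and 0 to 2 when a mouse was left out. For 24 against 12 months 0 to 1 were called when a mouse was left out. The 9 transcripts called became 5 at a mean of at least 1 FPKM and 0 at an adjusted p, and ranged from 6 to 11 without a mouse. The 7 shares called became 0 at an adjusted p and ranged from 5 to 8 without a mouse. The 2 circles called became 4 at an unadjusted p, 2 with DESeq2, and 1 to 3 without a mouse. The cause of these changes was not tested. Of 180 alternative values of members in old against young 158 kept their sign, of 104 for called transcripts 104 did, and of 78 for circles 78 did.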
